A study of Mus musculus with 11 samples.

Results

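The replication-dependent histone genes were read from 5 bulk RNA-seq libraries of KP1 cells, a mouse small cell lung cancer (SCLC) line. Members were the protein-coding genes of GENCODE M21 (GRCm38, the build called mm10) whose symbols begin with Hist1h, Hist2h, Hist3h or Hist4. This rule, which uses no measured value, gave 67 members of 35056 genes in the files. Of these, 6 code for the linker histone H1, 18 for H2A, 18 for H2B, 12 for H3 and 13 for H4. The largest cluster, Hist1, holds 54 members on chromosome 13 between bases 21715763 and 23934851. A further 10 lie on chromosome 3, 2 on chromosome 11 and 1 on chromosome 6.

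The control group held 2 libraries of untreated KP1 cells, replicates 2 and 3. The irradiated group held 3 libraries, replicates 1 to 3, of KP1 cells collected 24 h after a dose of 5 Gy. Both groups were the same line, which derives from a mouse tumor mutant for Rb and p53, and were grown in serum-supplemented RPMI-1640 with antibiotics. KP1 is 1 line, and the labels do not say whether the replicates were separate cultures, so the p-values measure the spread between these libraries. The single-cell libraries of sorted leukocytes that belong to the same series were not analysed here. Nor do the sources used here give whether RNA was selected by its poly(A) tail before sequencing.

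Replication-dependent histone genes supply the histones that package newly copied DNA, and their mRNAs normally accumulate in S phase. These mRNAs are unusual in ending at a conserved stem-loop, bound by the protein SLBP, in place of a poly(A) tail. Some of the genes can also give longer transcripts that are cleaved at an ordinary poly(A) signal. Replication-independent variants, encoded elsewhere, mostly have introns or ordinary poly(A) tails, and most are made outside S phase as well.

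The stem-loop and the poly(A) signal are shown for members on which the later results turn, because they mark the 2 ways in which a histone transcript can end. All stretches are from the GENCODE M21 transcript that held most of a member's reads, 5′ to 3′ on the transcript strand. In the first 5, capitals mark the stem-loop, 2 facing 6-base arms around 4 bases.
Hist1h2ap: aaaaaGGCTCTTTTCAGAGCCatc
Hist1h1c: caaaaGGCTCTTTTCAGAGCCaccactc
Hist3h2a: ccaaaGGCTCTTTTCAGAGCCacccaca
Hist3h2ba: ccaaaGGCTCTTTTCAGAGCCaccttcc
Hist4h4: acaaaGGCCCTTTTCAGGGCCcacaaag
Hist1h2ap, an H2A gene, shows the usual form: the transcript stopped 3 bases after the stem-loop. In the others it ran on, by 840 bases in Hist1h1c, 1643 in Hist3h2a, 169 in Hist3h2ba and 2445 in Hist4h4. Capitals in the next 4 mark the poly(A) signal AATAAA close to the annotated transcript end.
Hist1h1c: atgcttctAATAAAaagcgtttagttttca
Hist3h2a: atatgcccAATAAAataagagtacgtgtat
Hist3h2ba: atggtattAATAAAtttggttcaattttgg
Hist2h2be: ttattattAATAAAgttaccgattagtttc

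The letters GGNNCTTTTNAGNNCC, searched on the transcript strand, were found in 44 of the 67 members, against 0.39% of the transcripts of all tested genes. The commonest stem-loop, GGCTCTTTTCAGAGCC, was carried by 26 members of classes H1, H2A, H2B and H3. All 11 H4 genes with a match had other letters, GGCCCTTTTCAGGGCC in 7, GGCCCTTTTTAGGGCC in 2 and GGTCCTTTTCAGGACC in 2. Of the 23 members without a match, 21 also lacked a poly(A) signal near the end, among them Hist1h2bc, and the median annotated length of these 21 was 399 bases. AATAAA within 40 bases of the transcript end was found in 11 members, 9 of which also hold the stem-loop, and in 59.4% of all tested genes.

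Promoters of called members are printed because the letters of the promoters differed by histone class. RefSeq's table gave a window for 61 of the 67 members, 4 of them called. Each stretch is the 120 bases before the RefSeq start (GRCm38.p6, plus strand), and capitals mark the letters of a CCAAT box, of a TATAAA box or of the octamer ATTTGCAT on either strand.
Hist1h1c, chr13:23738687-23738806: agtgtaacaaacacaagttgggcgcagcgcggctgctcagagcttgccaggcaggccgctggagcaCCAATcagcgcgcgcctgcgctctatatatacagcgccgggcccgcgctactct
Hist3h2a, chr11:58954565-58954684: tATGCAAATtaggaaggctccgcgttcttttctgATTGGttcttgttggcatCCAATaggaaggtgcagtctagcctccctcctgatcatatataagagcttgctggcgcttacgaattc
Hist3h2ba, chr11:58948791-58948910: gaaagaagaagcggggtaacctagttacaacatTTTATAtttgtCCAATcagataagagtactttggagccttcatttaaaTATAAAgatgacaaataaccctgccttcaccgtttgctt
Hist1h2af, chr13:23533755-23533874: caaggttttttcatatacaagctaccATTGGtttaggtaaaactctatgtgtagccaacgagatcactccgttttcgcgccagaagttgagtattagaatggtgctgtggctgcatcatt
In windows of 250 bases before to 50 after the start, CCAAT was found in all 49 members of classes H1, H2A, H2B and H3 with a window, but in 3 of 12 H4 members. Over all 61 the share was 85.2%, against 37.4% of 32851 promoters of the same length. TATAAA was found in 57.4% of members and 13.6% of all promoters. The octamer was found in 13 members, 7 of class H2A and 6 of class H2B, a share of 21.3% against 1.74%. Windows of neighboring members can overlap, as for Hist1h2ae and Hist1h2bg, so 1 site can count for both genes in all 3 shares. These matches describe the letters in the windows and no binding was measured.

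The libraries held 21185956 to 31036317 estimated reads, and control replicate 2 was the deepest. Members took 3833 and 2973 reads in the controls and 5551, 3277 and 3849 in the irradiated libraries, 0.0113% to 0.0227% of the reads matched to genes. Neuroendocrine markers of SCLC were well detected, with Chga, which encodes the secretory granule protein chromogranin A, at 278 to 475 TPM, a level scaled by transcript length. Among these markers Uchl1, Syp and Calca rose by 1.14, 0.64 and 1.18 on the log2 scale and Ncam1 fell by 1.20 (edgeR adjusted p = 0.0229, 0.0315, 0.0474 and 0.0227). The 5 leukocyte markers summed to 4.55 and 6.91 TPM in the controls and 1.18 to 1.62 TPM after irradiation, and Ptprc, the defining leukocyte gene, was at most 0.498 TPM. The 5 stromal markers summed to 67.4 and 57.0 TPM in the controls and 36.8 to 51.8 TPM after irradiation, nearly all of it Pdgfra, with Col1a1 at 13.5 TPM in control replicate 2 and at most 0.104 TPM elsewhere. The 4 endothelial markers summed to 10.98 and 12.3 TPM in the controls and 7.73 to 10.8 TPM after irradiation. The part of these markers in the results was not tested. Control replicate 2 stood apart among the members: 23 of the 67 had no read there, against 10 or 11 in each other library. Of the 8 tested members without a read in control replicate 2, 7 had 9.28 to 55.0 reads in control replicate 3, among them Hist1h2an and Hist2h3c1. Some of these zeros fell on genes with near-identical copies. Hist2h2aa1 had 0 and 55.0 reads in the controls, whereas its copy Hist2h2aa2 had 66.9 and 0. How shared reads were divided between such copies was not tested. Reads also lay on longer transcripts in the controls, with a read-weighted mean length of 5465 and 4731 bases against 3716, 3626 and 3999 bases after irradiation.

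Of the 67 members, 51 had enough reads to be tested and 59 reached 3 reads in at least 1 library. After irradiation 4 members rose, namely Hist1h1c, Hist3h2a, Hist3h2ba and Hist1h2bc, by 1.39 to 2.26 on the log2 scale. One, Hist1h2af, fell by 2.13. In bulk RNA, fewer cells that carry a transcript and less of it per cell cannot be told apart. The 4 that rose made 7.84% of the tested members, against 12.7% of all 14106 tested genes called higher. The 1 that fell made 1.96%, against 13.0% of all genes called lower. Called here means an adjusted p under 0.05, where edgeR compared the groups by quasi-likelihood and the Benjamini-Hochberg method was applied to every tested gene. With a log2 fold change beyond 1.5 as well, 2 members were higher and 1 lower, against 1.63% and 1.90% of all genes. The median log2 fold change of the tested members was 0.05, with 26 above 0 and 25 below, beside a median of 0.02 over all genes. Its sign changed with the processing: it was −0.31 with offsets for GC content and −0.47 with offsets for transcript length, while the median of all genes stayed at 0.02 and 0.04. The normalized levels of the groups did not overlap in 9 members that were higher and 4 that were lower after irradiation, against 30.1% and 29.3% of all genes. Members had few reads, a median of 35.1 per library against 672 over all tested genes, and their fold changes had a median standard error of 0.69 against 0.22.

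**Figure D1:**
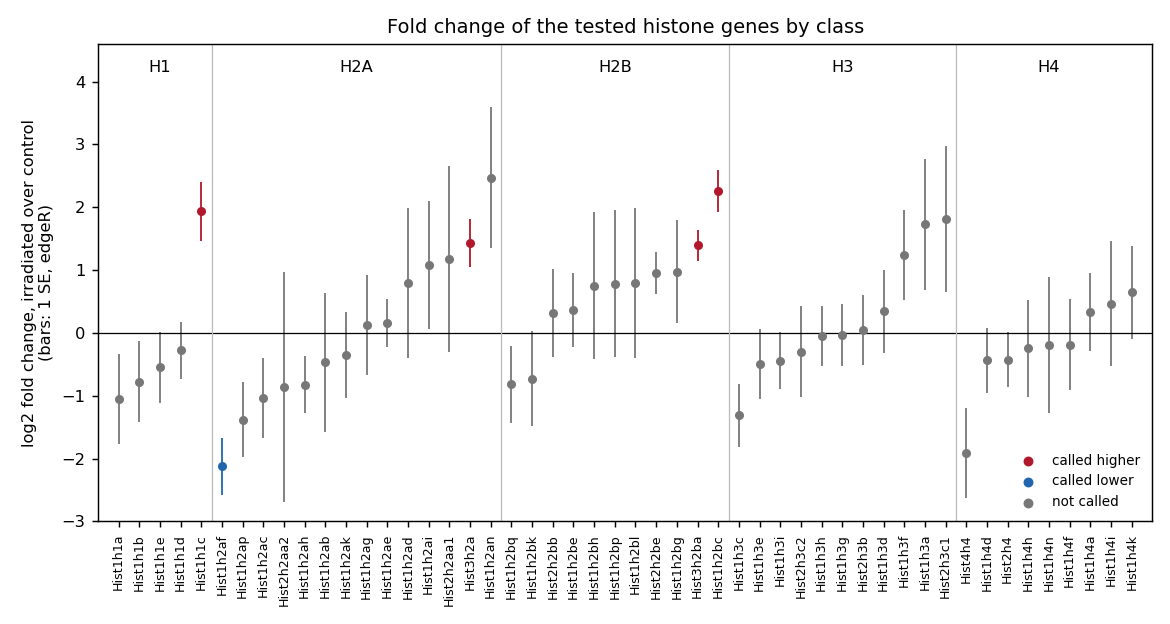
Log2 fold change of irradiated over control libraries (vertical axis) for the tested histone genes, ordered within each histone class; bars are 1 SE from edgeR, and color marks genes called at an adjusted p under 0.05. The 4 genes called higher stand in classes H1, H2A and H2B and 1 called lower in H2A, and most other bars cross 0; Hist1h4j, with no read in either control, is left out.

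Among the linker histones, which bind where DNA enters and leaves the nucleosome, Hist1h1c rose and the other 4 tested members lay below 0. Hist1h1c (ENSMUSG00000036181.2, chromosome 13, 23738808 to 23740367, plus strand) had 75 and 192 reads in the controls and 689, 333 and 374 after irradiation. All 3 irradiated libraries were above both controls, which themselves differed. The mean level went from 4.92 ± 3.24 CPM, reads scaled by library size (SD, n = 2), to 18.8 ± 7.56 (n = 3), a log2 fold change of 1.93 (SE 0.47; edgeR adjusted p = 0.0232). Hist1h1e had 262 and 160 reads in the controls and 235, 39.9 and 119 in the irradiated libraries, which overlapped. Its log2 fold change was −0.55 (SE 0.57; edgeR adjusted p = 0.50). Hist1h1b was at −0.77 and Hist1h1a at −1.06 (edgeR adjusted p = 0.392 and 0.299). Hist1h1t, known as the testis H1, was not tested and had at most 6 reads. Per length, Hist1h1c was the most abundant H1 in every irradiated library, at 32.7, 17.2 and 17.0 TPM, whereas in the controls it was at 3.74 and 10.6 TPM beside 10.1 and 6.84 TPM of Hist1h1e. In control replicate 2, Hist1h1b was the highest at 12.7 TPM.

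Class H2A, which pairs with H2B in the nucleosome, held 14 tested members with changes in both directions. Hist3h2a (ENSMUSG00000078851.4, chromosome 11, 58954685 to 58956830, plus strand) had 140 and 307 reads in the controls and 683, 504 and 447 after irradiation. No irradiated library fell to the level of a control. It rose from 8.21 ± 4.68 to 22.2 ± 5.51 CPM (SD, n = 2 and 3), a log2 fold change of 1.43 (SE 0.38; edgeR adjusted p = 0.0290). Its exons overlap those of Trim17 on the same strand and Gm44313 on the opposite strand, so reads could be shared between these genes. Hist1h2af (ENSMUSG00000061991.2, chromosome 13, 23533906 to 23534304, plus strand) had 321 and 154 reads in the controls and 60.6, 22.9 and 63.9 after irradiation. Here all 3 irradiated libraries lay below both controls, with means of 8.51 ± 3.86 and 1.94 ± 0.77 CPM (SD, n = 2 and 3) and a log2 fold change of −2.13 (SE 0.45; edgeR adjusted p = 0.0144). This call did not hold when the reads of near-identical copies were summed. Hist1h2af is 1 of 9 H2A genes of the Hist1 cluster whose transcripts match at 95% identity or more, and Salmon divides shared reads among them. Its exon also overlaps Gm44297 on the opposite strand, and the pseudogene Hist1h2aj, which it matches over 80% of the shorter transcript, had 7.9 to 28.1 reads. The summed reads of the 9 genes were 824 and 398 in the controls and 390, 158 and 303 in the irradiated libraries. The sum gave a log2 fold change of −0.96 (SE 0.36; edgeR adjusted p = 0.0836), and its highest irradiated library was just above the lower control, 15.6 against 14.9 CPM.

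Other H2A members with the highest levels belong to the same near-identical group. Hist1h2ah had 228 and 104 reads in the controls and 113, 40.7 and 101 after irradiation, and the groups overlapped (log2 fold change −0.82, SE 0.46; edgeR adjusted p = 0.209). Hist1h2ap had 182 and 42.6 reads in the controls and 49.0, 33.8 and 29.7 after irradiation (log2 fold change −1.38, SE 0.59; edgeR adjusted p = 0.117). Control replicate 2 was far above every other library for Hist1h2ap. In the opposite direction, Hist1h2an had 0 and 9.28 reads in the controls and 32.9, 18.4 and 19.4 after irradiation. Its groups did not overlap, but the test did not call it (log2 fold change 2.47, SE 1.12; edgeR adjusted p = 0.134). Hist1h2an and Hist1h2af, which belong to the same near-identical group, thus differed in sign, and how Salmon divided those reads was not tested.

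**Figure D2:**
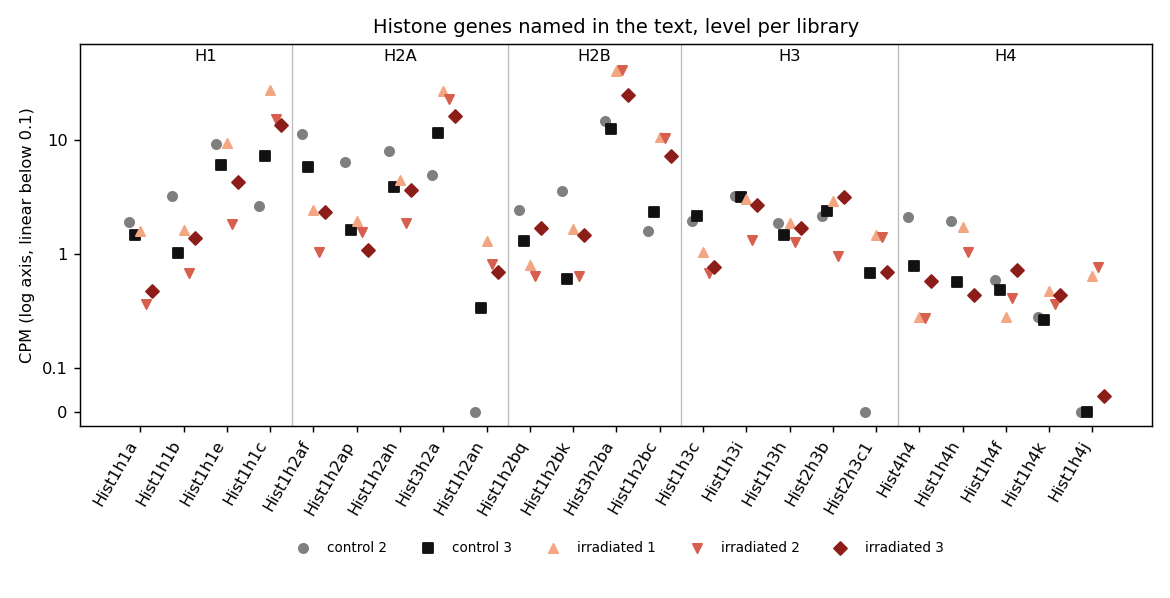
Level in CPM (vertical axis, logarithmic above 0.1 and linear below) of each named member in the 5 libraries, grouped by histone class and ordered by fold change. For Hist1h1c, Hist3h2a, Hist3h2ba and Hist1h2bc all irradiated libraries lie above both controls, for Hist1h2af all lie below, and Hist1h2an and Hist2h3c1 have no read in control replicate 2.

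Class H2B, the partner of H2A in the nucleosome, had the highest median log2 fold change, 0.78, with 9 of its 11 tested members above 0. This median depended on control replicate 2, where Hist1h2bh, Hist1h2bl and Hist1h2bp had no read. Without that library it was 0.12, with 6 of 12 above 0. Hist1h2bl and Hist1h2bp belong to a group of 7 near-identical H2B genes. Its summed reads were 68.6 and 68.8 in the controls and 44.5, 30.4 and 95.9 after irradiation (log2 fold change −0.17, SE 0.50; edgeR adjusted p = 0.834). With near-identical copies summed, the class median was 0.75, with 7 of 9 above 0. Hist1h2bh stayed apart there, because it matches other H2B genes over 80% of the shorter transcript only. Hist3h2ba (ENSMUSG00000056895.4, chromosome 11, 58948920 to 58949533, plus strand) was the most abundant member of all, with a mean of 130 TPM over the 5 libraries. It had 418 and 332 reads in the controls and 1014, 902 and 691 after irradiation. The groups stood well apart, and both controls were close to each other. Its level rose from 13.5 ± 1.54 to 35.6 ± 9.03 CPM (SD, n = 2 and 3), a log2 fold change of 1.39 (SE 0.25; edgeR adjusted p = 0.0104). Per length it went from 80.2 and 70.8 TPM to 190.1, 187 and 121 TPM. Hist3h2ba starts upstream of Hist3h2a on the same strand of chromosome 11, so both protein-coding genes with Hist3 symbols rose. The pseudogene Hist3h2bb-ps, which matches it at 95% identity or more over 80% of the shorter transcript, had at most 1 read.

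Hist1h2bc (ENSMUSG00000018102.5, chromosome 13, 23684199 to 23692908, plus strand) had the smallest p of all members. It had 46.2 and 62.1 reads in the controls and 266, 229 and 199.6 after irradiation. The irradiated libraries were alike and far above both controls. Its level rose from 1.97 ± 0.51 to 9.45 ± 1.87 CPM (SD, n = 2 and 3), a log2 fold change of 2.26 (SE 0.34; edgeR adjusted p = 0.00909). Its transcript matches 6 other H2B genes at 95% identity or more over 80% of the shorter transcript, so part of its reads could be shared. The transcript of 1156 bases is spliced from a longer gene and held no stem-loop match. Hist1h2ac, an H2A gene that starts 251 bases away on the opposite strand, had 70.8 and 21.1 reads in the controls and 22.3, 19.2 and 18.1 after irradiation. It was at −1.03 (SE 0.64; edgeR adjusted p = 0.255), so the neighbors of this divergent pair differed in sign. In all, 13 such divergent pairs of members lie within 1000 bases of each other.

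The remaining H2B members had smaller differences or varied more between libraries. Hist2h2be has an annotated transcript of 2620 bases that ends at a poly(A) signal. It had 197 and 275 reads in the controls and 603, 284 and 361 after irradiation. Its normalized levels did not overlap between groups, but it missed the threshold (log2 fold change 0.96, SE 0.34; edgeR adjusted p = 0.0677). DESeq2 called it higher, as did edgeR without a filter on low counts, with offsets for GC content or without control replicate 3. Hist2h2be was singled out after its values were seen. Hist1h2bq had 68.6 and 34.6 reads in the controls and 20.1, 14.0 and 47.2 after irradiation (log2 fold change −0.82, SE 0.61; edgeR adjusted p = 0.345). Hist1h2bk had 102 and 15.7 reads in the controls and 42.0, 14.4 and 40.1 after irradiation (log2 fold change −0.73, SE 0.76; edgeR adjusted p = 0.505). For Hist1h2bk the controls enclosed all irradiated libraries in CPM, and its fold change turned to 1.09 without control replicate 2.

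Class H3, whose tails carry many of the known chromatin marks, had no member called among its 11 tested by edgeR or DESeq2. Over all tested genes edgeR called 12.7% higher and 13.0% lower, and DESeq2 17.1% and 16.2%. In H3, 1 member was at an unadjusted p under 0.05, and the median log2 fold change was −0.03. Hist1h3c had 56.1 and 58.1 reads in the controls and 26.4, 14.6 and 20.5 after irradiation. The controls were nearly equal and all irradiated libraries lay below them, yet the log2 fold change of −1.31 (SE 0.51) missed the threshold (edgeR adjusted p = 0.0871). Hist1h3i, the most abundant H3 member per length, was at 44.8 and 46.1 TPM in the controls and 37.6, 16.1 and 32.5 TPM after irradiation. Its log2 fold change was −0.44 (SE 0.45; edgeR adjusted p = 0.493), and it shares near-identical sequence with Hist1h3h. Summed, this pair was at −0.30 (SE 0.36; edgeR adjusted p = 0.569). Hist1h3h alone was at −0.05 and Hist2h3b at 0.05, with overlapping groups in both and a sign that changed with the processing. Hist2h3c1 had 0 and 18.1 reads in the controls and 37.3, 30.7 and 18.5 after irradiation (log2 fold change 1.82, SE 1.16; edgeR adjusted p = 0.270).

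Class H4, the partner of H3 in the nucleosome core, likewise had no member called by edgeR among its 10 tested, with 2 at an unadjusted p under 0.05 and 1, Hist1h4j, called by DESeq2. The shares of all genes called are those given for H3. Hist4h4, the only member on chromosome 6, had 60.2 and 21.1 reads in the controls and 7, 6 and 15.8 after irradiation. The groups did not overlap, and the log2 fold change was −1.91 (SE 0.71; edgeR adjusted p = 0.0799). Hist1h4j had no read in either control and 16, 17.1 and 1 reads after irradiation, so irradiated replicate 3 was itself under the floor of 3 reads. Against that floor in each control library, its mean after irradiation was at least 4.44-fold higher, and it missed the threshold (edgeR adjusted p = 0.0568). With Hist1h4j at this bound, the median over all tested members was again 0.05. The 3 most abundant H4 members were low, with Hist1h4k at 8.03 to 13.4 TPM, Hist1h4h at 3.71 to 19.0 TPM and Hist1h4f at 4.0 to 10.2 TPM. Their log2 fold changes were 0.65, −0.25 and −0.19 (edgeR adjusted p = 0.543, 0.839 and 0.871).

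In all, 16 members were not tested, 7 of them in class H2B. Each had at most 22 reads in any library, and Hist1h2ba and Hist1h4m had none at all. A count of 0 allows up to 3 reads, which is 0.105 to 0.137 CPM.

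Summed by class, levels after irradiation were 0.54 to 1.52 of the control mean in TPM, and the direction of some totals depended on the measure. H2B summed to 185 and 140.4 TPM in the controls and 289, 246 and 207 TPM after irradiation, so that all irradiated libraries were above both controls. The H2B total was 1.52-fold higher in TPM and 2.21-fold higher in CPM. Of the TPM, Hist3h2ba alone held 80.2 and 70.8 in the controls and 190.1, 187 and 121 after irradiation. Hist1h2bc went from 3.37 and 5.02 TPM to 18.5, 17.4 and 13.2 TPM. In TPM the rise of the class rests on these genes, called higher from the same values, and does not describe the other H2B members. H2A summed to 420 and 257 TPM in the controls and 246, 127 and 175 TPM after irradiation. Of this, Hist1h2af alone held 169 and 90.8 TPM in the controls and 32.6, 13.9 and 30.8 TPM after irradiation. The fall of the class in TPM rests in large part on this gene, called lower from the same values. In TPM the H2A total was 0.54 of the control mean, with no overlap of the groups, but in CPM it was 1.10 of it and the groups overlapped, so its direction depended on the measure. H1 summed to 35.2 and 28.3 TPM in the controls and 52.8, 22.7 and 28.9 TPM after irradiation, and H3 to 143 and 138 against 139, 62.9 and 115 TPM. H4 summed to 76.2 and 44.3 TPM in the controls and 66.1, 51.5 and 42.0 TPM after irradiation. In all of these 3 classes the TPM totals overlapped between the groups. Over all members the total was 0.85 of the control mean in TPM and 1.39 in CPM, again opposite in direction. No p is given for these sums, and 2 against 3 libraries allow no exact two-sided permutation p under 0.1.

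**Figure D3:**
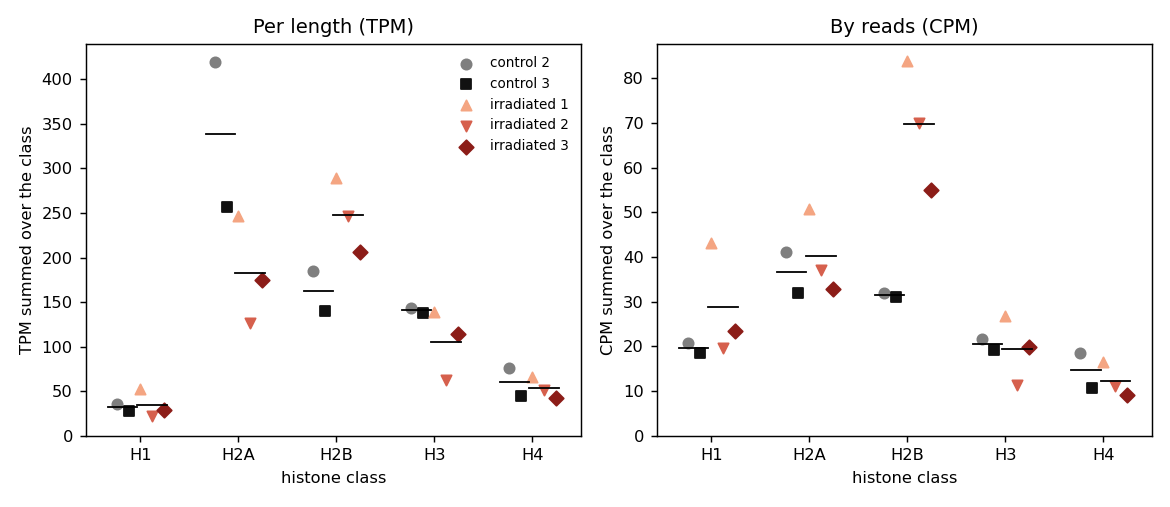
Levels summed over the members of each histone class (horizontal axis) in the 5 libraries, in TPM at left and in CPM at right; short lines are group means. H2B lies higher after irradiation on both scales, in TPM mostly through Hist3h2ba. H2A lies lower in TPM, in large part through Hist1h2af, and about level in CPM.

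The composition of the histone transcripts also differed between the libraries. The 4 members called higher held 10.7% and 16.1% of all member TPM in the controls and 33.2%, 46.9% and 29.1% after irradiation, a description that rests on the same values that called them. The other 63 members summed to 767 and 510 TPM in the controls and 530, 271 and 402 TPM after irradiation, where irradiated replicate 1 lay between the controls.

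Members were also grouped by the annotated 3′ end of their main transcript. This grouping was made after the values were seen, and no test was run on it. For 62 members only 1 transcript was quantified, and for 5 several, so the end was mostly fixed by the annotation. The grouping therefore does not show at which end the sequenced mRNAs stopped, and this was not tested. Of the 11 members whose main transcript has AATAAA near its end, 10 were tested, 8 of these lay above 0 and their median log2 fold change was 1.17. Of the 4 members called higher, 3 belong here, Hist1h1c, Hist3h2a and Hist3h2ba, as do Hist2h2be, Hist2h3c1 and Hist1h4j. These 3 of 10 tested stand beside 12.7% of all tested genes called higher. The groups did not overlap in 6 that were higher and in 1, Hist4h4, that was lower, beside 30.1% and 29.3% of all tested genes. Among the 6, some gaps were slight. Hist1h4j had 1 read in irradiated replicate 3 against none in the controls, and Hist2h3c1 0.692 CPM there against 0.676 CPM in control replicate 3. The TPM of the 11 members summed to 123 and 126 in the controls and 293, 249.9 and 182 after irradiation. Hist1h2ae and Hist2h4, whose annotated transcripts also end at a poly(A) signal, were at 0.16 and −0.43, with overlapping groups. The pattern thus did not hold for every gene of this form.

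The 21 members whose transcript stops within 60 bases of a stem-loop match had no call by edgeR or DESeq2 among 12 tested. Of these, 1 was at an unadjusted p under 0.05, and the median was −0.19. Over all tested genes edgeR called 12.7% higher and 13.0% lower, and DESeq2 17.1% and 16.2%. These 21 members summed to 158 and 75.5 TPM in the controls and 98.7, 65.8 and 72.3 TPM after irradiation. In reads they summed to 485 and 224 against 339, 203 and 255. Members with a poly(A) signal near the end had 1212 and 1379 reads against 3369, 2215 and 2113, so the counts of calls are not like for like. The 14 members with a stem-loop and a longer transcript without a poly(A) signal near its end likewise had no call by either tool among 13 tested, 1 at an unadjusted p under 0.05 and a median of −0.28. The 21 members with neither a stem-loop match nor a poly(A) signal near the end had a median of −0.04 among 16 tested. They include Hist1h2bc and Hist1h2af, called in opposite directions. A missing match need not mean a missing stem-loop. Hist1h3g, among these members, has a stem-loop with other loop letters and 47 bases after it. No search was made beyond the annotated transcript ends. In CPM the total of the genes with a poly(A) signal was 2.21 of the control mean, whereas those of the other 3 forms were 0.84, 0.86 and 0.90.

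**Figure D4:**
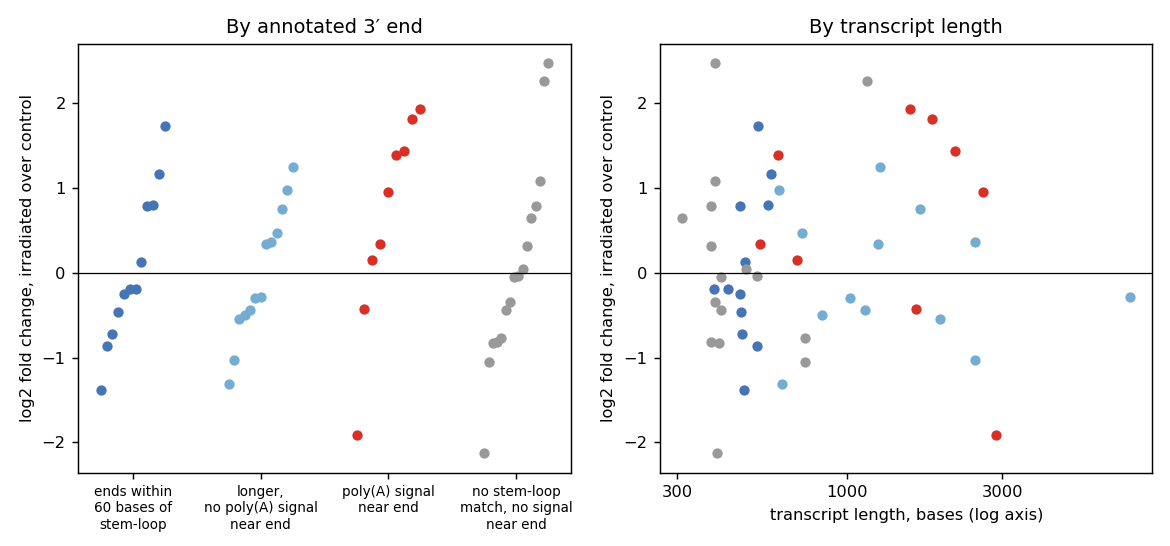
Log2 fold change of the tested members, irradiated over control (vertical axes), by the annotated end of the main transcript at left and against transcript length in bases at right, with the same colors in both. Hist1h4j is left out of both panels. Members with a poly(A) signal near the end lie mostly above 0, and their median of 1.17 counts Hist1h4j. The other groups lie around 0 with medians of −0.19, −0.28 and −0.04.

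The calls varied with the libraries used and with transcript length. Leaving out a control leaves 1, which is then assumed to vary like the irradiated libraries. Without control replicate 2, Hist1h2bc alone was called (log2 fold change 2.04, edgeR adjusted p = 0.0489), with Hist1h1c at 1.40 (0.0914), Hist3h2ba at 1.53 (0.0540), Hist3h2a at 0.96 (0.112) and Hist1h2af at −1.55 (0.112). In that fit 0.65% and 1.2% of all genes were called higher and lower. Without control replicate 3, 10 members were called higher and 3 lower, against 15.1% and 13.4% of all genes. Without irradiated replicate 1, Hist1h1c was at 1.55 (0.0634) and Hist3h2a at 1.26 (0.0819), and without irradiated replicate 2 Hist3h2a was at 1.41 (0.0623). With offsets that remove each library's trend with transcript length, Hist1h2bc at 1.67 and Hist1h2af at −2.59 were called (edgeR adjusted p = 0.0293 and 0.0349). There Hist1h1c was at 1.51, Hist3h2a at 1.22 and Hist3h2ba at 0.75 (edgeR adjusted p = 0.0749, 0.0729 and 0.0841). Over the alternatives tried, the adjusted p ranged from 2.48e-08 to 0.136 for Hist1h2bc, from 3.12e-06 to 0.21 for Hist3h2ba, from 3.52e-06 to 0.154 for Hist1h1c, from 5.62e-05 to 0.199 for Hist3h2a and from 5.04e-05 to 0.135 for Hist1h2af. The direction of each of the 5 was the same in all of these alternatives.

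Factors that make and process histone mRNA were read next, from a list of 23 genes chosen with earlier results of these libraries known. Of 22 tested, 2 rose and 4 fell, shares near the 12.7% and 13.0% of all genes called higher and lower, and the median log2 fold change was −0.22. Slbp, which binds the stem-loop, was at 101 and 148 TPM in the controls and 149, 139.7 and 123 TPM after irradiation. In TPM control replicate 3 lay within the irradiated range, whereas in CPM both controls, 63.2 and 108, were below the irradiated libraries at 143, 148 and 115. Slbp missed the threshold in edgeR (log2 fold change 0.66, SE 0.24; edgeR adjusted p = 0.0735) and was called higher by DESeq2. Npat, the coactivator of histone gene transcription, fell by 0.54 (SE 0.15; edgeR adjusted p = 0.0312), from 32.2 and 27.9 TPM to 16.8, 16.4 and 17.98 TPM. Casp8ap2, also called FLASH and needed to process histone mRNA ends, fell by 0.58 (SE 0.14; edgeR adjusted p = 0.0238). Lsm10, a subunit of the U7 particle that cuts histone mRNA, rose by 1.09 (SE 0.31; edgeR adjusted p = 0.0383). Its partner Lsm11 was at −0.11 and Zfp473, another U7-associated factor, at −0.83, neither called (edgeR adjusted p = 0.763 and 0.219). The other called genes of the list, named after their values were seen, were Lsm1, which rose by 1.12, and Pou2f1 and Upf1, which fell by 1.24 and 1.21. Their background is mRNA decay for Lsm1 and Upf1 and binding of the octamer for Pou2f1. With offsets for transcript length only Upf1 was called in this list, and Npat was at −0.01, Casp8ap2 at −0.01 and Lsm10 at 0.40 (edgeR adjusted p = 0.958, 0.959 and 0.404).

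The replication-independent variants, from another list chosen in the same way, differed mostly in 1 direction. Of 11 genes, all tested, 6 rose, against 12.7% of all genes, none fell in edgeR's test, and their median log2 fold change was 0.87. At an unadjusted p under 0.05, and in DESeq2, the counts were 7 higher and 0 lower. H3f3a and H3f3b, which encode H3.3, rose by 1.14 (SE 0.23; edgeR adjusted p = 0.0131) and 0.95 (SE 0.25; edgeR adjusted p = 0.0278). H3f3a went from 1197 and 1795 TPM to 2536, 3068 and 2530.5 TPM. H2afz and H2afv, which encode forms of H2A.Z, rose by 0.87 and 0.94, and H2afj by 1.28. H1f0, the linker variant known from non-dividing cells, rose by 1.04, from 107 and 130 TPM to 246, 182 and 167 TPM. The edgeR adjusted p of these 4 were 0.0192, 0.0130, 0.0199 and 0.0130. H1fx, H2afx, H2afy, H2afy2 and Cenpa were not called, with log2 fold changes of 0.52, 0.20, 0.05, −0.07 and 0.35. These genes have a median transcript length of 1831 bases, and with offsets for length 1 of the 11, H3f3a, was called and the median was 0.24.

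**Figure D5:**
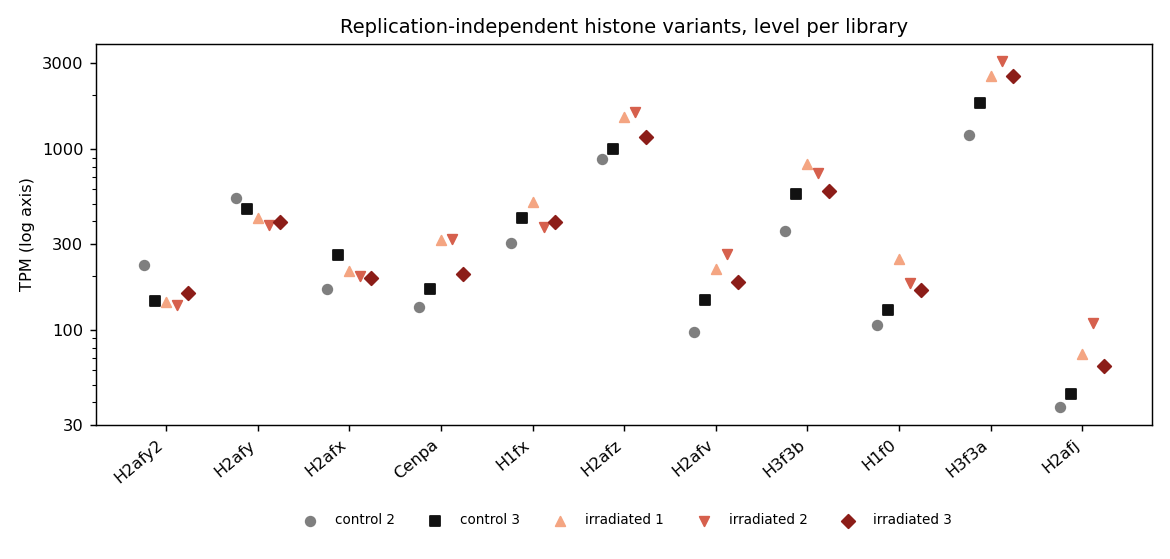
TPM (logarithmic vertical axis) of the 11 replication-independent histone variants in the 5 libraries, ordered by log2 fold change. H3f3a, H3f3b, H2afz, H2afv, H2afj, H1f0 and Cenpa have all irradiated libraries above both controls, and H1fx, H2afx, H2afy and H2afy2 do not.

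Set beside the variants, the clustered genes were a small part of the histone transcripts of their class in these libraries. In TPM they were a smaller part after irradiation for H2A and H3. They held 17.7% and 11.03% of the H2A TPM in the controls and 8.71%, 4.49% and 7.48% after irradiation, without overlap. The H2A shares include Hist1h2af, called lower from the same values. As a share of reads in CPM, which is not scaled by length and was added after the data were seen, these were 3.52% and 2.84% against 3.05%, 2.13% and 2.38%, which overlapped. For H3 they held 7.83% and 5.18% in the controls and 3.64%, 1.5% and 3.34% after irradiation, without overlap in TPM or in CPM. For H1 the shares were 7.92% and 4.92% in the controls and 6.54%, 3.96% and 4.88% after irradiation, which overlapped. These shares were not tested. The sources used here do not give whether RNA was selected by its poly(A) tail, which mRNAs ending at the stem-loop lack. The shares are therefore those in the libraries and need not be those in the cells.

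Chaperones, which carry histones to DNA, and S-phase genes completed the lists. Of 21 chaperone genes, all tested, 1 rose and 5 fell, against 12.7% and 13.0% of all genes. Rbbp4, a subunit of chromatin assembly factor 1, rose by 0.68, whereas Atrx and Hjurp, which load H3.3 and the centromeric H3, fell by 1.40 and 0.90 (edgeR adjusted p = 0.0289, 0.00886 and 0.00919). Of 30 S-phase genes, 7 rose, among them Gins2 and Rpa2 (1.06 and 0.85), and 5 fell, among them Pole and Lig1 (−1.51 and −0.67), and their median log2 fold change was 0.01. The same shares of all genes apply, and the 5 that fell are near theirs. With offsets for length the counts were 1 higher and 1 lower for the chaperones and 1 higher and 2 lower for the S-phase genes, against 2.99% and 2.16% of all genes.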

How the data were processed

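Bulk RNA-seq of KP1 cells was available as 5 transcript tables. Per the submitters' processing notes, the authors quantified reads against mm10 with Salmon 0.8.2 and used DESeq2 1.22.2. Library preparation beyond the kit, strandedness and the transcript set were not given in the sources used here. The tables deposited by the authors hold estimated counts that need not be whole, and TPM, which is scaled per transcript length. Of 113116 transcripts, 112762 were matched to GENCODE M21 by identifier, which covered at least 99.9% of the reads of each library, and both units were summed to 35056 genes. The 3 pseudogenes with histone symbols were left out.

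Gene sums were rounded to whole counts and tested with edgeR 4.0.16 (R 4.3.3), using its quasi-likelihood test, TMM scaling, the filterByExpr filter and Benjamini-Hochberg adjustment over 14106 genes. CPM are TMM-scaled. The model held the group only. Copies were taken as near-identical at 95% identity over 80% of the longer transcript (blastn 2.17.0). The fits were tested on simulated data with known changes. Alternatives were other scaling and filters, DESeq2 1.42.0, offsets for effective length, transcript length (a spline of 5 degrees of freedom) and GC content, a replicate block, summed copies, other thresholds and leaving out each library.

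Members and lists were chosen with earlier results of these data known. Named were, in each class, the 3 members highest in mean TPM and those with the highest and lowest fold change, up to 5 called members in each direction, 6 fixed mRNA-processing factors, all listed variants, and the 2 smallest p in each direction among called chaperones and S-phase genes. Others named are said to be chosen after their values were seen or serve as neighbors or markers. Depth was 21185956 to 31036317 reads, and floors of 3 reads cover counting error only. The 6 single-cell libraries were not analysed here. The level of 1 marker gene is not reported here.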

Additional observations from a re-analysis of the deposited data

How the results depend on the processing

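Counts of members called (4 higher, 1 lower) were within 1.5 times the reported ones under other scaling, no or stricter filtering, DESeq2 and offsets for effective length or GC content. Transcript length offsets gave 1 higher. Requiring a log2 fold change beyond 1.5 gave 2 higher, an adjusted p under 0.1 gave 3 lower, and summing near-identical copies gave 0 lower (3 at an unadjusted p under 0.05 in edgeR). Leaving out 1 library gave 1 to 10 higher and 0 to 3 lower. The listed companion genes, 16 higher and 14 lower, came to 3 and 4 with transcript length offsets, and to 0 to 21 and 3 to 14 without 1 library: 0 and 3 without control replicate 2 (15 and 12 at an unadjusted p under 0.05 in edgeR), 4 and 8 without irradiated replicate 1 and 5 and 7 without irradiated replicate 2. The log2 ratio of class totals moved in CPM to 0.14 for H2A, 1.14 for H2B and 0.47 for all members, and without 1 library the ratio in TPM changed sign for H1 (−0.30 to 0.36), H4 (−0.52 to 0.26) and all members (−0.46 to 0.036).

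The replicate numbers 2 and 3 occur in both groups. The log2 ratio of replicate 2 to replicate 3 had a correlation between the groups of r = −0.20 across 14106 genes, which are not independent. With 1 such ratio in each group, this cannot decide whether same-numbered libraries were paired, and the labels do not say. A replicate block gave 4 members higher and 1 lower, and 2 and 3 companion genes, against 4.27% and 3.5% of all genes. The block with transcript length offsets gave 0 and 0 members in edgeR (4 and 8 at an unadjusted p under 0.05) and 0 and 0 companion genes (6 and 8).

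Of the named genes' values under alternatives, 642 kept their direction and side of the threshold, 91 lost a call, 15 gained one and 37 reversed, none of these 37 in a called gene. The cause was not tested. Reversals by total reads were Hist1h3h at 0.043 and H2afy2 at 0.035, and by effective length Hist1h3h at 0.093, Lsm11 at 0.11 and H2afy2 at 0.0022. By transcript length they were Hist2h3b at −0.44, Lsm11 at 0.47, Zfp473 at 0.053, H1fx at −0.040, H2afx at −0.31, H2afy at −0.23 and Cenpa at −0.29. By GC content they were Hist2h3b at −0.44, H1fx at −0.079, H2afx at −0.16 and H2afy at −0.082. By the replicate block they were Hist2h3b at −0.35 and Hist1h4f at 0.037, and by the block with transcript length Hist2h3b at −0.87, Lsm11 at 0.45, H1fx at −0.20, H2afx at −0.35, H2afy at −0.26 and Cenpa at −0.34. Without 1 library, values ranged from −1.36 to 0.31 for Hist1h1b, −1.48 to 1.09 for Hist1h2bk, −0.20 to 0.17 for Hist1h3h, −0.21 to 0.42 for Hist2h3b, −0.86 to 0.93 for Hist1h4h, −0.64 to 0.081 for Hist1h4f, −0.40 to 0.31 for Lsm11, −0.038 to 0.54 for H2afx, −0.023 to 0.18 for H2afy and −0.36 to 0.36 for H2afy2.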
